A study of Mus musculus with 18 samples.

Results

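Regions carrying the promoter mark H3K4me3 (trimethylation of lysine 4 of histone H3) in mouse erythroblasts, and in no library labelled as immature megakaryocyte, were examined. The peaks of 4 H3K4me3 libraries were joined wherever they shared at least 1 bp, which gave 14789 regions. Of these, 217 were called in both erythroblast libraries and in neither library labelled as immature megakaryocyte, and they are referred to as the ERY-only regions. Among them, 138 lay within 1 kb of an annotated transcription start site (TSS) of a protein-coding gene, and are called promoter regions, and 79 lay farther away. The regions were chosen by the presence of H3K4me3 peaks, so H3K4me3 values are given as a description without a test, and tests were made only on an independent mark, H3K27ac (acetylation of lysine 27 of histone H3).

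The study mapped both marks by chromatin immunoprecipitation and sequencing (ChIP-seq) in cells sorted from the bone marrow of adult C57BL6 mice, which were male by its methods. Erythroblasts (ERY) were of low forward scatter and positive for Ter119 and CD44, and immature megakaryocytes (iMK) were positive for CD41 and CD61 and negative for Ter119, Sca1 and cKit. Cells with CD4, CD8, IL7Ra, CD11b, Ly6g or CD45R were left out of both sorts. Each mark had 2 libraries per cell type, which by the methods came from different groups of mice or from separately sorted portions of the same mice, so p-values measure the spread between these libraries.

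Erythroblasts are the precursors that fill with hemoglobin, build the spectrin skeleton of the red cell membrane, clear their organelles and then expel the nucleus. H3K4me3 is deposited around the start sites of transcribed genes and of many CpG-rich genes that are poised, and H3K27ac marks active promoters and enhancers. GATA1, TAL1 and KLF1 are the transcription factors best known for binding the promoters and enhancers of erythroid genes, and the DNA words WGATAR (W is A or T, R is A or G) and CACCC are those of GATA factors and of KLF factors.

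Promoter sequences are shown for a globin of each cluster, for surface proteins, for the erythropoietin receptor and for a ubiquitin ligase. They are chosen examples from the erythroid part of the set. Each holds 250 bases before to 50 bases after the RefSeq start on GRCm38.p6 (mm10), 5′ to 3′ on the strand of the gene. Capitals mark matches on either strand to AGATAA or TGATAA, to AGATAG or TGATAG (the WGATAR words, with their reverse complements on the other strand) and to CCNCNCCC, the KLF word, whose matches may overlap each other. Hbb-bs, an adult beta globin, lies at chr7:103827879-103828178 on the minus strand, and Hba-a1, an adult alpha globin, at chr11:32283422-32283721 on the plus strand. The Hba-a2 promoter shares an unbroken run of 297 bases with that of Hba-a1, so peaks at either gene may hold reads of both. Kel, a blood group endopeptidase of the red cell surface, lies at chr6:41704276-41704575 on the minus strand. Ackr1, the chemokine receptor that carries the Duffy blood group, lies at chr1:173333454-173333753 on the minus strand. Rhag, the Rh-associated glycoprotein, lies at chr17:40810899-40811198 on the plus strand. Trim10, a ubiquitin ligase of the tripartite motif family, lies at chr17:36869324-36869623 on the plus strand, and Epor, the erythropoietin receptor, at chr9:21963527-21963826 on the minus strand.
Hbb-bs: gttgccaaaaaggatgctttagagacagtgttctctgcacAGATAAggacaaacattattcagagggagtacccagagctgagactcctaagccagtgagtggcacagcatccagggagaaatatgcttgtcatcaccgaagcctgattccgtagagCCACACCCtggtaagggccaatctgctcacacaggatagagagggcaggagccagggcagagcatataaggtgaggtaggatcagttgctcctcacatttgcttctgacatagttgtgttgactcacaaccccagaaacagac
Hba-a1: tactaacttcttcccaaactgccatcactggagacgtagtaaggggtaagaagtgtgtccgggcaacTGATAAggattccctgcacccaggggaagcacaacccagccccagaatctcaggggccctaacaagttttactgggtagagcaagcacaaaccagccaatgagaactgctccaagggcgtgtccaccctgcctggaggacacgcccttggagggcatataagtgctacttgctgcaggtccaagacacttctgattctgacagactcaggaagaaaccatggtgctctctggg
Kel: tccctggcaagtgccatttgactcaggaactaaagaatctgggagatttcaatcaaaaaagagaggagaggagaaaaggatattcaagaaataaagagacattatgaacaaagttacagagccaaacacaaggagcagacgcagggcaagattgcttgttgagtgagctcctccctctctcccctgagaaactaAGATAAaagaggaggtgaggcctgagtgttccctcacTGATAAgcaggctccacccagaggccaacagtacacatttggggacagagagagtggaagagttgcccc
Ackr1: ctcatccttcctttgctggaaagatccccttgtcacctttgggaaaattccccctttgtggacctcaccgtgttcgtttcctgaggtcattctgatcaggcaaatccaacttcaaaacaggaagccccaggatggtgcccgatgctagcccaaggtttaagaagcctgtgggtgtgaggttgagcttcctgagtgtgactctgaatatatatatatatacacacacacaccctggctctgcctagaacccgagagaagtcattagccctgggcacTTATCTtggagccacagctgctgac
Rhag: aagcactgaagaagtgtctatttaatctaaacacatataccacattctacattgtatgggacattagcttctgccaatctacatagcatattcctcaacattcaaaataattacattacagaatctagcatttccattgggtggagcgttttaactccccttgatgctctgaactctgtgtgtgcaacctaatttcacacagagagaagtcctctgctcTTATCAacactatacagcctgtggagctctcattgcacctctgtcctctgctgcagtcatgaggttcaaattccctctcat
Trim10: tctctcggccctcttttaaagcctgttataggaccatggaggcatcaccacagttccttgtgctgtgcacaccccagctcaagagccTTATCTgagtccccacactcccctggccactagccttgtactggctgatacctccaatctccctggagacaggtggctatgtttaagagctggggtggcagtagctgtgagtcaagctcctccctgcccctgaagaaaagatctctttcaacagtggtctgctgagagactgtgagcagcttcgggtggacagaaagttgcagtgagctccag
Epor: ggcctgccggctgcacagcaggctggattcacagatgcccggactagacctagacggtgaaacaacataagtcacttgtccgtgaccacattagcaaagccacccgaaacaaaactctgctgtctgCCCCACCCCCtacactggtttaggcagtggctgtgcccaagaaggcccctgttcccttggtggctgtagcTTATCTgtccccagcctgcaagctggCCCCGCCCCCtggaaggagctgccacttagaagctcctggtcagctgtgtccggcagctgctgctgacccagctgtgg
Every one of these 7 windows held at least 1 match to the GATA words, with 2 in Kel, and Hbb-bs and Epor held 1 and 4 matches to the KLF word. As chosen examples they do not stand for the set. Over all 138 promoter regions, 74 (53.6%) held a GATA word, in windows set on the start site nearest the region centre. A match is a run of letters and not a measured binding site.

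Uros, which encodes uroporphyrinogen III synthase of the heme pathway, is shown with 2 of its start sites because only the downstream site was at an ERY-only region. That site lies at chr7:133702451-133702750 and the upstream site at chr7:133709246-133709545, both on the minus strand, and the upstream site was at a region called in all 4 H3K4me3 libraries. Capitals mark the same words as above.
Uros downstream: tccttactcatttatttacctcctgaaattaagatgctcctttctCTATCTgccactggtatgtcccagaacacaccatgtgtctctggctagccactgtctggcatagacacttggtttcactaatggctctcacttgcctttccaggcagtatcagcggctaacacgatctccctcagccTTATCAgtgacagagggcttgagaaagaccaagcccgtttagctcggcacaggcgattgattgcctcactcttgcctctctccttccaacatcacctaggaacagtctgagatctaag
Uros upstream: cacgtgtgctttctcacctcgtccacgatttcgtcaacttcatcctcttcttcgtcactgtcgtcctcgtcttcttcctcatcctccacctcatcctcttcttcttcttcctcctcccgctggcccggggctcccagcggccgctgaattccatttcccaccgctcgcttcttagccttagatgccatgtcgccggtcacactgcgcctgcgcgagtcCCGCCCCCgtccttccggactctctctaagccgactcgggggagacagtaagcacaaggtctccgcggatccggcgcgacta
The downstream window held 2 GATA matches and an observed over expected CpG ratio of 0.298, against 0 GATA matches, 1 KLF match and a ratio of 1.16 in the upstream window. The CpG ratio compares the number of CG pairs with that expected from the C and G content, and values near 1 are typical of CpG islands.

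A further ERY-only region (chr11:78071001-78075600), which the annotation places 371 bp from a start site of Eral1, held the genes of Mir144, Mir451a and Mir451b, microRNAs that are abundant in erythroid cells. The mature sequences from RefSeq are shown with the seed, bases 2 to 8, in capitals. They lie between bases 78073010 and 78073207 of chromosome 11 on the plus strand.
mmu-miR-144-5p: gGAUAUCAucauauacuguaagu
mmu-miR-144-3p: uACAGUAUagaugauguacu
mmu-miR-451a: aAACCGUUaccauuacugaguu
The 3 seeds differed from each other. The histone marks were measured over the whole region, so they do not separate the start of the microRNA transcript from that of Eral1.

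The lists differed in length. H3K4me3 peaks numbered 8841 and 6275 in the ERY libraries (replicates 1 and 2, names in order of submission) and 7578 and 13222 in the libraries labelled iMK, covering 9.02 to 33.8 Mb. H3K27ac peaks numbered 21768 to 25750 and covered 64.9 to 77.1 Mb in ERY and 42.9 to 53.2 Mb in iMK. The lists hold no read depth, so no counting interval is given. Of 12 erythroblast markers, 11 and 9 had a promoter H3K4me3 peak in the ERY libraries and 2 and 3 in the libraries labelled iMK. All 12 had H3K27ac in both ERY libraries, against 2 in each iMK library, where Klf1 and Cd44 were the markers with a peak. The label of the other sort was less well borne out, since of 9 megakaryocyte markers 1 and 3 had H3K4me3 and 1 and 2 had H3K27ac in the libraries labelled iMK, against 0 and 0, and 4 and 4, in ERY, and Pf4, Ppbp and Gp6 had no peak of either mark in any library. Of 10 myeloid markers, 5 and 9 had H3K4me3 and 8 and 9 had H3K27ac in the libraries labelled iMK, against 0 and 0, and 1 and 0, in ERY. Of 8 lymphoid markers, 0 and 2 had H3K4me3 in the libraries labelled iMK and 0 and 0 in ERY, and 2 and 2 against 1 and 1 had H3K27ac. The part that these markers had in the choice of ERY-only regions was not tested, and iMK below names the label.

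How many regions were ERY-only depended on single libraries. Without iMK replicate 2, the longest list, 1063 regions would have met the rule, 912 of them at promoters. Regions called in both ERY libraries numbered 5635 in all, of which 4576 were called in all 4 libraries, 828 also in iMK replicate 2 alone and 14 also in iMK replicate 1 alone. Without ERY replicate 1 the number was 516, and without ERY replicate 2 it was 938. With the same number of peaks taken from each list it was 661, of which 592 were at promoters. The opposite rule was met by 1150 regions (both iMK and neither ERY library). Of the ERY-only regions 63.6% were within 1 kb of a TSS, against 75.1% of all 14789 regions. The same held for 4487 of the 4576 regions called in all 4 libraries, and for 1070 of the 1150 of the opposite rule.

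The ERY-only regions were short to moderate in width. Promoter regions had a median width of 3000 bp (600 to 7800) and the others 2000 bp (400 to 4600). The H3K4me3 fold, the deposited ratio of ChIP to control signal of the strongest peak in a region, had a median of 5.04 (2.05 to 13.5) in ERY replicate 1 and 4.21 (2.13 to 19.6) in replicate 2 at promoters. Away from promoters the medians were 3.48 (1.38 to 8.90) and 3.48 (1.35 to 10.2). In 126 of the 138 promoter regions a start site lay inside the region itself. Chromosome 11, which holds the alpha globin cluster, had 26 of the 217 regions, 3 of them in that cluster. These 26 were 2.18% of its 1192 H3K4me3 regions, against 2.24% on chromosome 12 and 2.0% on chromosome 6. Chromosome X had 1, which was 0.266% of its 376 H3K4me3 regions. ERY replicate 2 and iMK replicate 1 listed 31 and 39 H3K4me3 peaks on chromosome X, against 177 and 350 in the other libraries, and the rule needs both ERY lists.

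**Figure D1:**
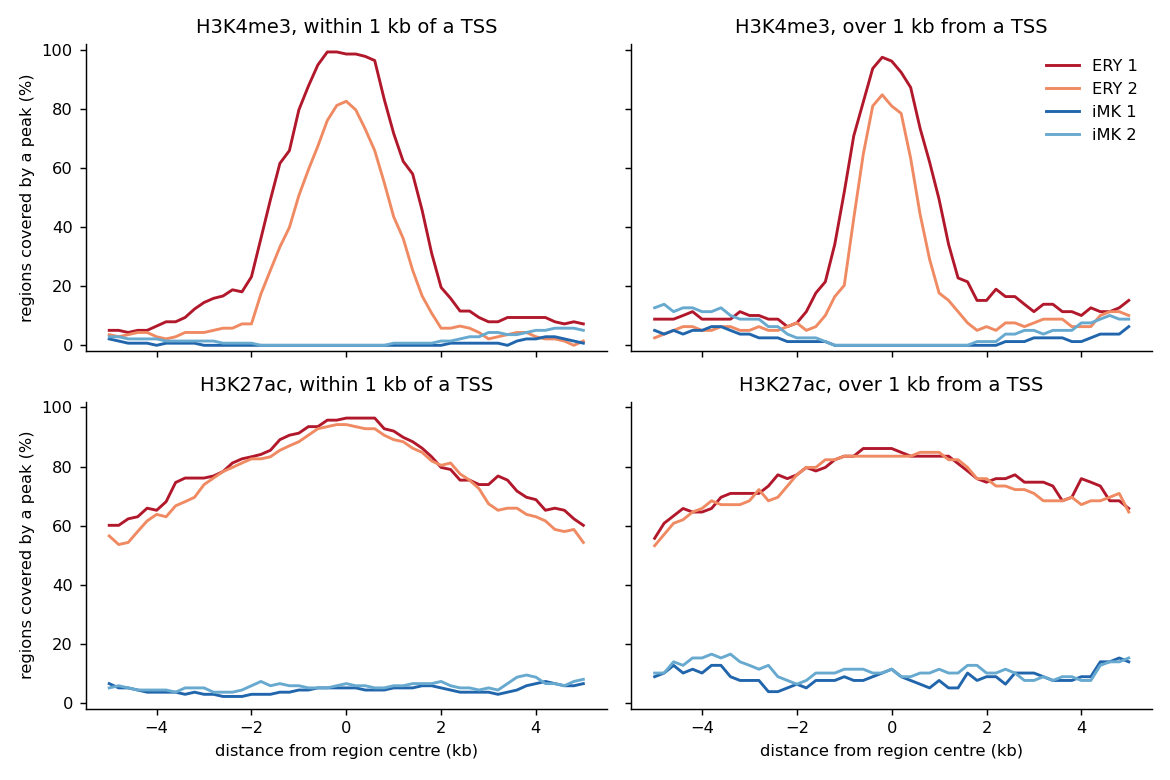
Share of ERY-only regions covered by a peak (percent, y axis) by distance from the region centre (x axis, kb), for promoter regions (left) and the others (right), 1 line per library and 1 row per mark. At the centre of promoter regions H3K27ac covers 96.4% and 94.2% in ERY and 5.07% and 6.52% in iMK, and H3K4me3 of iMK is 0% there because the rule chose it so.

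The independent mark was then compared. In the ERY libraries H3K27ac covered a median of 100% of an ERY-only region, and in both iMK libraries a median of 0%. By calls, 165 of the 217 regions (76.0%) were also ERY-only for H3K27ac, 20 were shared by all 4 H3K27ac libraries, 19 were not replicated, 13 had no H3K27ac peak in any library and 0 were iMK-only. Over all 14789 H3K4me3 regions, the share that was ERY-only for H3K27ac was 4.6%. At promoters the number was 115 of 138, and away from them 50 of 79. Of the 4576 regions with H3K4me3 in all 4 libraries, 9 were ERY-only for H3K27ac and 4464 had H3K27ac in all 4. Of the 1150 regions with H3K4me3 in iMK alone, 832 had H3K27ac in iMK alone and 0 in ERY alone.

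The percent of each region covered by H3K27ac peaks was fitted across all 12365 H3K4me3 regions with H3K27ac in at least 1 library, using limma, and calls were made at a Benjamini-Hochberg adjusted p of 0.05. Of the 217 ERY-only regions, 204 had such a value and 172 were higher in ERY, against 13.4% of all regions tested. None (0) was lower in ERY, against 21.1% of all regions, and 0 were lower at an unadjusted p under 0.05. By position, 117 of 135 promoter regions were higher, against 12.9% of all promoter regions tested, and 55 of 69 others, against 15.9% of all regions over 1 kb from a TSS. The median difference among the 204 was 100 percentage points, whereas over all regions tested it was less than 1 point in size. In 187 of the ERY-only regions both ERY values were above both iMK values, which held for 28.7% of all regions tested. In 148 of the regions the coverage was exactly 100% and 100% in ERY and 0% and 0% in iMK, and each of them had a difference of 100 points (SE 0.272, adjusted p = 7.77e-06 by limma). These regions show no spread between replicates at all, so that SE comes from the spread limma borrows from other regions. The share of all regions tested with the same 4 values is not given. Full coverage in ERY replicates 1 and 2 was found in 189 and 184 of the 217 regions, against 3103 and 2724 of all 14789. The smallest difference that passed was 44.1 points. Without iMK H3K4me3 replicate 2, 366 of the 1045 tested regions that would be ERY-only were higher (35.0%) and 18 lower. With lists of the same length 282 of 656 were higher (43.0%) and 8 lower, against 84.3% higher here. Over all regions tested in these 2 fits, 1399 of 9610 and 1224 of 8504 were higher, and 1311 and 1250 lower.

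The H3K27ac peaks over these regions were wide. At promoters the widest overlapping peak had a median of 10200 bp in ERY replicate 1 and 9600 bp in replicate 2, and away from promoters of 11700 and 11400 bp. Promoters with H3K4me3 in all 4 libraries lay under H3K27ac peaks with medians of 3000 and 2800 bp in the same libraries. A peak wider than a region can cover it completely, and neighbouring regions can lie under a single peak. The H3K27ac fold of the strongest peak over ERY-only promoters had medians of 6.40 and 5.24 in the ERY libraries. Over all H3K27ac peaks of these libraries, at promoters or not, the medians were 3.06 and 2.77, which is not a like comparison. The fold over promoters with H3K4me3 in all 4 libraries was not compared.

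**Figure D2:**
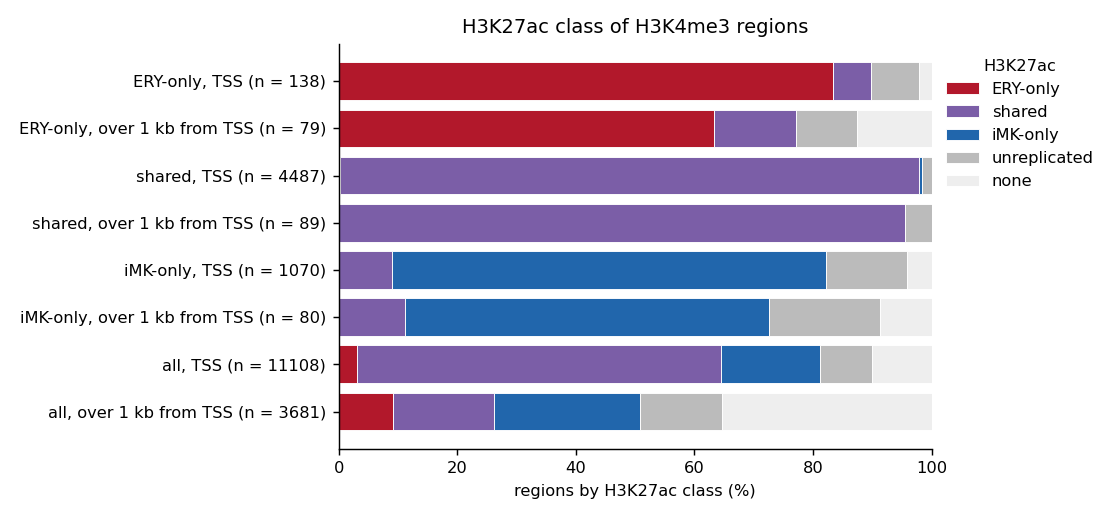
Share of H3K4me3 regions (percent, x axis) in each class of H3K27ac call, 1 bar per class of H3K4me3 region at promoters (TSS) or elsewhere, with the number of regions in brackets. ERY-only H3K27ac makes up 115 of 138 promoter regions and 50 of 79 others, and 9 of the 4576 shared regions.

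The promoter regions were then read gene by gene against lists of erythroid functions. Of 138 promoter regions, 39 held a gene of 9 erythroid lists (38 genes of 197 found), 1 held a housekeeping gene, and the other 98 held no listed gene. Over all 21938 protein-coding genes, 138 (0.629%) had a start site at an ERY-only region, beside which the count for each list below is to be read as a description, since H3K4me3 chose the regions. No promoter region held a gene of the platelet, megakaryocyte transcription factor, myeloid, lymphoid, stem cell or stromal lists.

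The globin and heme list gave 7 of its 23 genes. Adult alpha globins Hba-a1 and Hba-a2, the theta-like globin Hbq1b and adult beta globins Hbb-bs and Hbb-bt had no H3K4me3 peak in either iMK library. The H3K4me3 fold in ERY replicates 1 and 2 was 4.21 and 4.07 at Hba-a1, 5.45 and 3.91 at Hba-a2, and 3.60 and 6.32 at Hbq1b. At the beta cluster it was 6.68 and 3.40 at Hbb-bs and 4.32 and 8.15 at Hbb-bt. All 5 globin regions were covered to 100% by H3K27ac in both ERY libraries and to 0% in both iMK libraries, so the groups did not overlap (difference 100 points, adjusted p = 7.77e-06 by limma for each). The 3 alpha cluster regions lay within chr11:32282801-32298400 under the same H3K27ac peak, 75600 bp wide in ERY replicate 1 and 24800 bp in replicate 2, and are not independent measurements. The H3K27ac fold reached 16.9 at Hbb-bs in ERY replicate 2 and was 10.3 in replicate 1. The nearest iMK H3K4me3 peak was 388200 bp from Hbb-bs and 14400 bp from Hba-a1. Uros had folds of 3.77 and 4.89 and the same H3K27ac values as the globins. Slc25a38, the mitochondrial glycine carrier needed for the first step of heme synthesis, differed from these. Its H3K27ac coverage was 100% and 100% in ERY and 82.4% and 100% in iMK. The difference of 8.82 points did not pass (adjusted p = 0.453 by limma), and was 17.6 points without iMK replicate 2.

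The red cell membrane skeleton gave the largest share of the 16 lists, with 8 of its 15 genes. Among them were Sptb (beta spectrin), Ank1 (ankyrin, which ties spectrin to the membrane), Epb42 (protein 4.2), Slc4a1 (band 3, the anion exchanger), Dmtn (dematin, an actin bundler), Add2 (beta adducin, which caps actin) and Tmcc2. H3K4me3 folds were 5.86 and 3.46 at Sptb, 5.56 and 5.42 at Ank1, and 5.83 and 5.15 at Slc4a1. All of those named except Dmtn were covered to 100% by H3K27ac in both ERY and 0% in both iMK libraries, and passed. At Dmtn the H3K27ac coverage was 0% and 100% in ERY and 0% and 0% in iMK (adjusted p = 0.453 by limma), although H3K4me3 covered 6800 and 5400 bp there in the ERY libraries. The nearest H3K27ac peak of ERY replicate 1 was 21000 bp away. Leaving out that library, the ERY one at 0%, gives a difference of 100 points by construction. The H3K27ac folds at Slc4a1 were 11.5 and 9.88.

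Surface, blood group and transport genes gave 10 of 31. They were Rhag and Rhd of the Rh complex, Kel, Ermap (the Scianna antigen), Art4 (the Dombrock antigen), Ackr1, Aqp1 (a water channel that carries the Colton antigen), Slc14a1 (the urea transporter that carries the Kidd antigen), Tspo2 and Cldn13. The Rhd region was the widest of all ERY-only regions at 7800 bp, with H3K4me3 folds of 5.11 and 5.43. Aqp1 had folds of 7.10 and 4.46 over 6600 bp and lay under H3K27ac peaks of 38200 and 39400 bp. Ackr1 had H3K27ac folds of 11.03 and 6.05, and Rhag of 6.43 and 10.7. All but Art4 were at 100% and 100% in ERY and 0% and 0% in iMK and passed. Art4 had H3K27ac coverage of 100% and 0% in ERY and 0% and 0% in iMK (adjusted p = 0.453 by limma). Leaving out ERY replicate 2, the ERY library at 0%, gives a difference of 100 points by construction.

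Of 26 erythroid transcription factors and cofactors, 5 had an ERY-only promoter. Lmo2, the bridging protein of the TAL1 complex, had H3K4me3 folds of 4.07 and 3.60 and H3K27ac folds of 10.6 and 6.94. Another start site of Lmo2 was at a region with H3K4me3 in all 4 libraries. Sox6, a repressor of embryonic globin, had 2 ERY-only regions at different start sites, the upstream one with folds of 9.86 and 2.96 and the downstream one with 3.56 and 4.02. Hemgn (hemogen) and Tfdp2, the partner of E2F factors, had folds of 6.20 and 4.12 and of 4.05 and 5.56. These 5 regions were covered to 100% in ERY and 0% in iMK and passed. Klf3, a repressor that binds CACCC words, was covered to 100% and 100% in ERY and 64.7% and 94.1% in iMK. It did not pass (20.6 points, adjusted p = 0.362 by limma), and the difference was 5.88 or 35.3 points without iMK replicate 1 or 2. Its iMK H3K27ac folds of 7.73 and 12.4 were no lower than the 7.14 and 4.67 of ERY.

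Of the remaining erythroid lists, cytokine signalling gave Epor alone out of 15 genes, with H3K4me3 folds of 10.8 and 6.26. Autophagy, ubiquitin and nuclear remodelling gave 5 of 34. They were Bnip3l, the receptor through which mitochondria are cleared, with folds of 3.74 and 4.07, the ligases Trim10 (5.94 and 4.71) and Trim58 (4.30 and 3.97), Xpo7, a nuclear exportin (3.18 and 3.08), and Ypel4 (5.72 and 4.75). Antioxidant and energy genes gave 2 of 24, the mitochondrial thioredoxin reductase Txnrd2 (4.74 and 4.53) and Fn3k, which deglycates proteins (7.56 and 5.81). All 8 of these were covered to 100% by H3K27ac in both ERY and 0% in both iMK libraries and passed. Iron handling gave 0 of 16 and cell cycle exit 0 of 13.

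**Figure D3:**
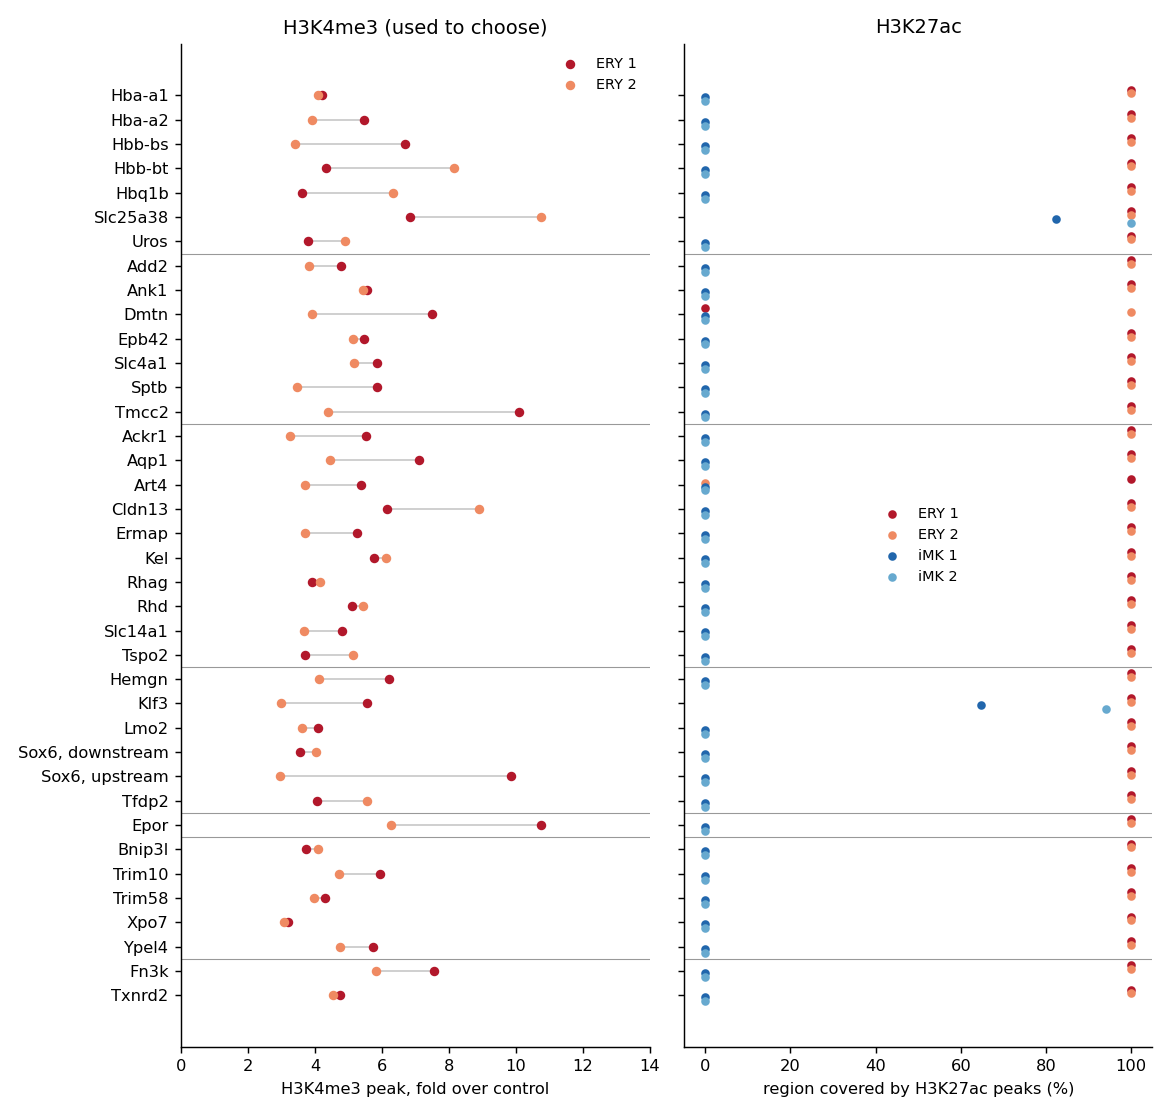
H3K4me3 fold (ChIP over control) and H3K27ac coverage (percent of the region) in each library for ERY-only promoter regions of genes on the erythroid lists, 1 row per region and 1 point per library, with lines between rows parting the gene lists. H3K27ac points of ERY sit at 100% and those of iMK at 0% in all rows except Slc25a38, Klf3, Dmtn and Art4.

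Among the 98 promoter regions of genes on no list, 64 had 100% in both ERY and 0% in both iMK libraries. The matching share of all promoter regions is not given. The 10 of these 64 with the widest H3K4me3 included those at Ctse, Pdzk1ip1, Ache, Arrb1, Tspan8, Btnl10, Eral1, Slc22a23 and Brpf3. Ctse, the aspartic protease cathepsin E, had H3K4me3 folds of 10.4 and 6.06. Ache, the acetylcholinesterase that carries the Yt blood group, had folds of 8.66 and 4.71, and its region ended 400 bp from an iMK H3K4me3 peak. Tspan8, a tetraspanin, had H3K27ac folds of 9.37 and 10.3, and the Eral1 region with Mir144 and Mir451a of 10.7 and 7.49. H3K4me3 folds at the latter were 5.65 and 4.82.

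Start sites inside genes were common among the ERY-only promoters. For each region the gene with the start site nearest the centre was taken. In 70 of 138 (50.7%) the first start site of that gene, the most upstream one annotated, did not lie within 1 kb. The same was true of 155 of 1070 iMK-only promoter regions (14.5%) and of 313 of 4487 promoter regions called in all 4 libraries (6.98%). In 32 of the 70 another start site of the gene lay at a region called in all 4 libraries, as for Uros above. The distance from the first start site to the ERY-only one was 7534 bp in Uros, 9220 bp in Bnip3l, 63010 bp in Tfdp2, 8996 bp in Klf3, 4615 bp in Slc25a38, 2541 bp in Txnrd2 and 59160 bp in Arrb1, whose product desensitizes G-protein coupled receptors. In others no further start site was at such a region, as in Ank1 (60390 bp), Add2 (49400 bp), Xpo7 (58590 bp), Tmcc2 (24210 bp), Ctse (23600 bp), Slc14a1 (18790 bp), Dmtn (9893 bp) and Hemgn (9270 bp). Both Sox6 regions were of this kind, at 192700 and 7749 bp. Genes of this kind could still have H3K4me3 in iMK, and another start site of Xpo7 was at an iMK-only region. Tmcc2, Slc14a1, Hemgn and Sox6 had a peak of iMK replicate 2 within 1 kb of another start site. Ank1, Add2 and Dmtn had no iMK peak within 1 kb of any start site. The peak lists do not show from which site transcription began.

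Of the 79 regions over 1 kb from a protein-coding TSS, 36 were centred in introns, 6 in exons and 37 between genes, with a median of 6647 bp to the nearest TSS (1096 to 470962). The start of a long noncoding or unconfirmed gene model lay within 1 kb of 13 of them. Among these was Redrum, a noncoding RNA with erythroid expression in mouse, whose region was the farthest from a coding gene. The matching counts over all 3681 regions over 1 kb from a TSS are not given. The 10 of the 79 with the highest mean H3K4me3 fold are named by the nearest coding gene. Ak3, a mitochondrial adenylate kinase whose region lay at the noncoding model AC113961.1, had folds of 8.90 and 8.69 and H3K27ac coverage of 100% and 100% in ERY and 25% and 33.3% in iMK, which passed (adjusted p = 0.00541 by limma) but not when either ERY library was left out (0.0783 and 0.0799). Uggt1, a sensor of glycoprotein folding whose region lay at the noncoding model Gm33280, had folds of 7.50 and 4.53, with 100% and 100% in ERY against 54.5% and 18.2% in iMK, and did not pass (adjusted p = 0.0952 by limma). Ninj2 had 100% and 100% against 0% and 26.3% (adjusted p = 0.0302 by limma), and this call was lost when either ERY library was left out (0.185 and 0.191). Plek2, a pleckstrin of maturing erythroblasts, had a region 4037 bp from its start site with 53.8% and 100% against 0% and 0%. It did not pass (adjusted p = 0.105 by limma), and the difference was 100 or 53.8 points without ERY replicate 1 or 2. Gabbr2 (a GABA receptor subunit), Dnajc16 (a chaperone of the DnaJ family), Hist4h4 (a histone), Eef2k (a kinase that inhibits translation elongation), Usp10 (a deubiquitinase) and Mrm1 (a mitochondrial ribosomal RNA methyltransferase) were at 100% and 100% against 0% and 0% and passed.

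Several of the distal regions stood near erythroid genes. One (chr7:103809201-103810800) lay 3196 bp from the Hbb-bt start site and another 5299 bp from an Ank1 start site, each beside an ERY-only promoter region of the same gene. A region 6273 bp from Car2, the red cell carbonic anhydrase, 5167 bp inside Slc25a37, the mitochondrial iron importer mitoferrin, and 6647 bp inside Ube2o, a ubiquitin-conjugating enzyme of reticulocytes, each had H3K27ac in both ERY libraries only. The same held for regions at Rb1 (2041 bp from a start site) and E2f4 (1125 bp), which encode cell cycle regulators. The Rb1 region was 800 bp from an iMK H3K4me3 peak. Promoters of Rb1, E2f4 and Slc25a37 had H3K4me3 in all 4 libraries, and those of Car2 and Ube2o in both ERY libraries and iMK replicate 2. The regions named here were chosen after their positions were seen. In all, 7 groups of regions within 10 kb of each other, at Hbb-bt, Ank1, the alpha globins, Btnl10, Tom1l1, Plek2 and Adcy6, together held 15 regions.

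The 32 tested regions that did not pass were of several kinds. The difference was above 0 in 25, below 0 in 2 and 0 in 5. H3K27ac was present in both iMK libraries in 21 of the 217 regions. Tor1aip2 had coverage of 100% and 0% in ERY and 71.4% and 100% in iMK (difference -35.7 points, adjusted p = 0.592 by limma). Themis2 had 100% in all 4 libraries. Tpt1, a region 15293 bp from the start site of a translationally controlled protein, had 100% and 100% against 66.7% and 100% (adjusted p = 0.453 by limma), and its H3K27ac folds were 2.88 and 2.0 in ERY and 5.59 and 5.71 in iMK. On the log2 scale of the fold plus 1, Tpt1 was the single ERY-only region lower in ERY (-0.96, adjusted p = 0.0238 by limma), on a scale whose median over all regions was -1.29. The region near Pim1 was covered to 80% and 100% in ERY and 90% and 90% in iMK. It was lower by coverage (-10.0 points) without ERY replicate 2. Fam53b and Sgms1 passed, with 100% and 100% in ERY against 60% and 48.6% (adjusted p = 0.0222) and against 22.2% and 5.56% (adjusted p = 0.0131) in iMK, and neither passed by limma when either ERY library was left out (0.126 to 0.163). On the log2 fold scale the calls of Ak3, Ninj2, Fam53b and Sgms1 were lost as well.

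The 13 regions without H3K27ac in any library included 3 promoters, the chaperone gene Dnajb3 (H3K4me3 folds 8.68 and 4.62), the deubiquitinase gene Usp46 (5.58 and 4.60) and the vomeronasal receptor gene Vmn1r10. The other 10, near Zfp990, Zfp981, Gm16503, Lrrc8b, Nkain2, Prl2c3, 1700001F09Rik, Vmn1r238, Ide and 4932411N23Rik, had folds of 1.52 to 2.95 in ERY replicate 1 and of 1.42 to 2.99 in replicate 2. Among the 50 ERY-only regions away from promoters with ERY-only H3K27ac the medians were 3.90 and 3.60, and among the 115 such promoters 5.03 and 4.24. The least significant peaks of the set were in this kind of region, at Nkain2 (p-value in the list 0.00882 in ERY replicate 1), Zfp981 (0.008 in replicate 2) and Vmn1r238 (0.00736 in replicate 1). The regions near Zfp990, Zfp981 and Gm16503 lie on chromosome 4, in a stretch of zinc finger genes with many copies. So does the region near Zfp984, which was covered to 30% by H3K27ac in ERY replicate 2 and is not among the 13. Reads of near-identical genes may be placed on the wrong copy there, which was not tested.

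At the limits of the rule, the ERY-only regions closest to an iMK H3K4me3 peak included those at Txnrd2 and Afmid, each 200 bp from it, which is 1 step of peak edges. In all, 11 of the 217 were within 1 kb of such a peak and 77 within 10 kb, with a median of 25000 bp. Just outside were 842 regions called in both ERY and a single iMK library, of which Zfp746, Cdk17 and Itpripl1 shared the fewest bases (400 each). For the distance to a TSS, Adcy6 (931 bp), Vmn1r10 (747 bp) and Afmid (704 bp) were just inside and Trak1 (1096 bp), Serpinb6b (1098 bp) and E2f4 (1125 bp) just outside.

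The DNA of the promoter regions was low in CpG. In windows of 250 bases before to 50 after the start site nearest the region centre, the median observed over expected CpG ratio was 0.294 (quartiles 0.149 and 0.544) in the 138 ERY-only regions, 0.525 over the first start sites of all 21938 protein-coding genes, 0.878 in regions called in all 4 libraries and 0.738 in iMK-only regions. The GC content of the ERY-only promoters (median 53.7%) was near that of all genes (54.8%) and below the 65.0% of shared regions. The GATA words of the sequences shown above were present in 74 of 138 of these windows (53.6%), against 27.6% of all genes, 13.4% of shared and 14.4% of iMK-only promoter regions. For Hba-a1 and Epor the window counted here was set on another start site than the RefSeq start shown above, and it held no GATA word. For the KLF word CCNCNCCC the shares were 52.9% and 54.6% of all genes, for the E-box CAGATG 17.4% and 15.2%, and for TGANTCA, the NFE2 and AP-1 core, 10.9% and 6.91%. GAGGAA, the PU.1 core, was in 27.5% against 27.7%, TGTGGT, the RUNX core, in 19.6% against 15.3%, and CCGGAAG, an ETS word, in 5.07% against 10.8%. All were searched on both strands. The groups of windows differ in base composition, and these shares are a description. In the 79 other regions, 500 bases to each side of the centre held a GATA word in 83.5%, against 80.0% of all 3681 regions over 1 kb from a TSS, CAGATG in 62.0% against 48.8%, and CCGGAAG in 0% against 9.78%. RefSeq promoter entries existed for 66 of the 138 promoter regions.

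**Figure D4:**
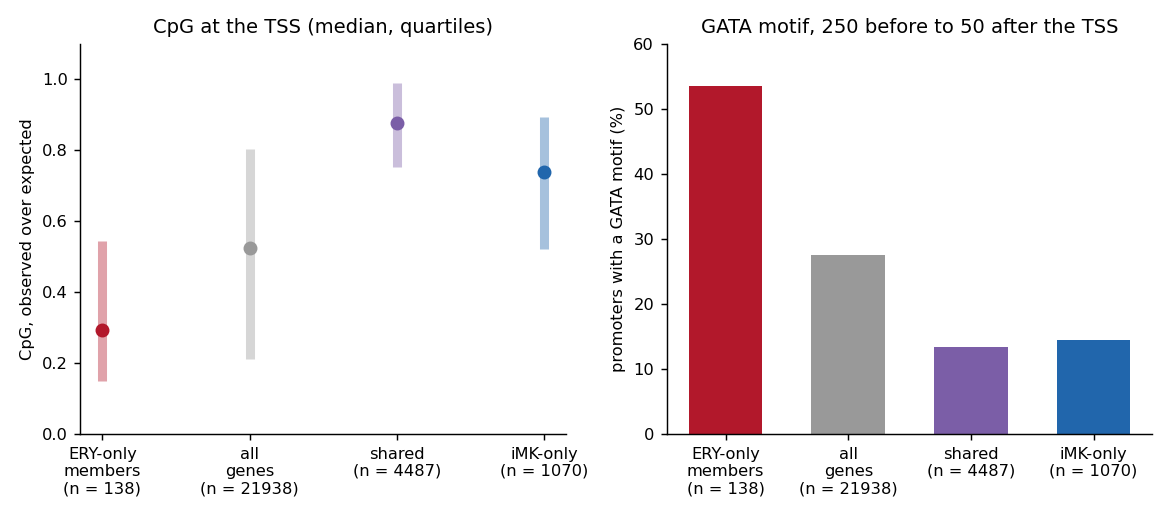
Observed over expected CpG ratio (left, median as a point, quartiles as a bar) and share of promoter windows with a GATA word (right, percent) for ERY-only promoter regions, all protein-coding genes, shared regions and iMK-only regions. ERY-only promoters have the lowest median CpG ratio (0.294) and the highest share with a GATA word (53.6%).

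The erythroid lists were also followed beyond the ERY-only promoters. Of the 197 listed genes, 159 had no ERY-only region at a start site. Of these, 92 had promoter H3K4me3 in all 4 libraries, among them Klf1, Tal1, Nfe2, Tfrc and Fech, and 22 had it in both ERY libraries and iMK replicate 2 alone, among them Zfpm1 (the GATA1 cofactor FOG1). In 7, among them the X-linked Alas2 and Gata1, it was in ERY replicate 1 and no iMK library, and in 12, such as the embryonic globins Hbb-y and Hba-x, in no library.

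Across whole gene loci (the gene with 10 kb on each side), H3K27ac coverage was higher in ERY in 22.0% and lower in 17.2% of 14467 protein-coding genes tested by limma, with a median difference of 0.60 points. Of the 9 erythroid lists, 130 of 194 genes tested were higher and 4 lower (Slc2a1, Csf2rb, Socs1 and Cdkn1a), with a median difference of 26.4 points. By list, 21 of 23 globin and heme genes, 9 of 16 iron genes, 12 of 15 skeleton genes, 23 of 31 surface genes, 19 of 26 transcription factors, 4 of 14 cytokine genes, 21 of 33 autophagy genes, 17 of 24 antioxidant genes and 4 of 12 cell cycle genes were higher. Klf1 was covered to 76.5% in ERY and 13.3% in iMK on average (63.2 points, SE 2.77, adjusted p = 0.0065 by limma), and Gata1 to 36.3% and 0% (36.3 points, SE 1.95). Thus genes outside the ERY-only set could also have more H3K27ac in ERY, as at Tal1 (58.3 points, SE 6.63, adjusted p = 0.0138 by limma). Of 7 other lists, 13 of 92 genes tested were higher and 31 lower, with a median of -2.89 points. These were 7 higher and 7 lower of 21 platelet genes, 2 and 4 of 9 megakaryocyte transcription factors, 0 and 11 of 23 myeloid, 1 and 4 of 10 lymphoid, 0 and 2 of 7 stem cell, 0 and 1 of 4 stromal and 3 and 2 of 18 housekeeping genes. When either iMK library was left out, 49 erythroid genes and 917 or 927 of all genes were higher, and when either ERY library was left out, 8 genes of the 7 other lists and 756 or 754 of all genes were lower.

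**Figure D5:**
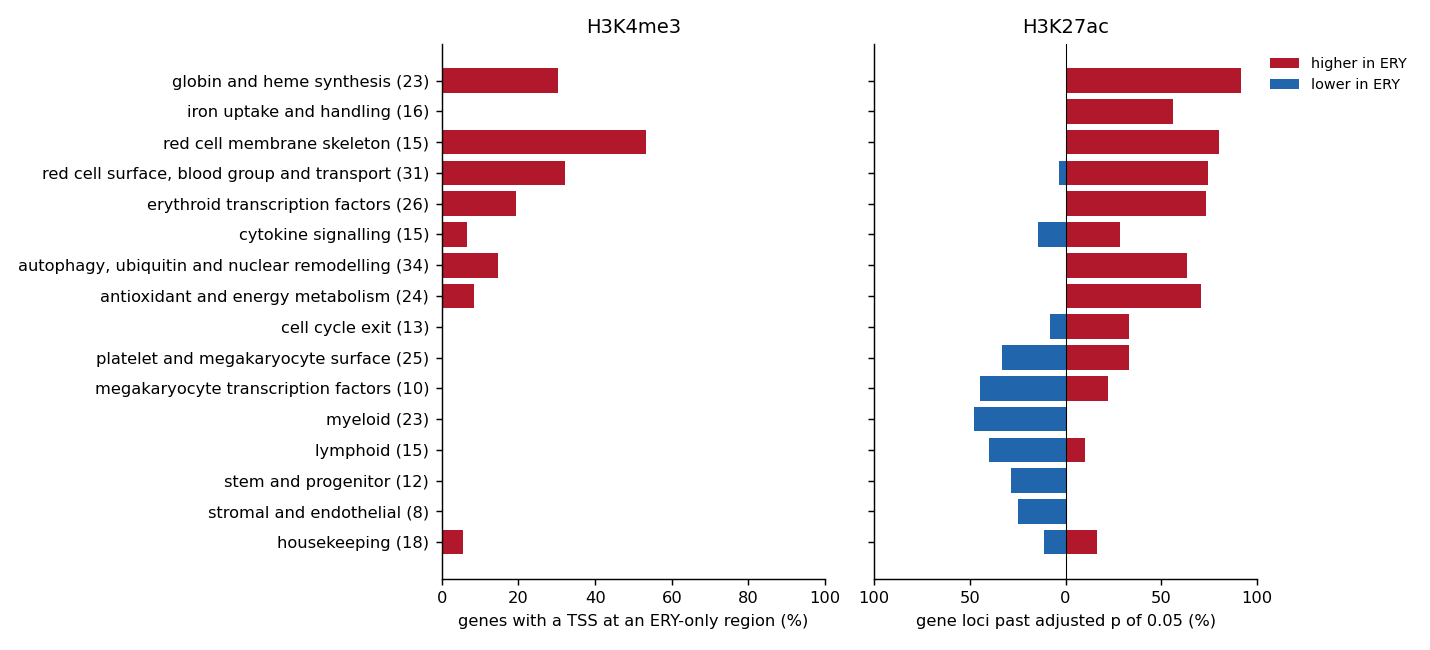
For each gene list, with the number of genes found in brackets, the share of genes with a start site at an ERY-only H3K4me3 region (left, percent) and the share of tested gene loci higher or lower in ERY for H3K27ac (right, percent). The skeleton list has the highest share on the left (8 of 15), and the globin and heme list on the right (21 of 23).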

How the data were processed

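The series holds 18 samples: 8 ChIP-seq libraries with a peak list each, and 10 input libraries, which were not used here. The authors called peaks in each library separately, and Bowtie 1.0.0, SICER 1.1 and the build mm10 are named in the submitters' processing notes. Every deposited peak carries a p-value, a q-value of at most 0.01 and a fold, which is a ratio of ChIP to control signal computed by the authors. Peak edges fell on steps of 200 bp. A listed absence means that no peak passed this threshold, and list length depends on depth, which the files do not give.

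Gene models were 21938 protein-coding genes of GENCODE vM21 (GRCm38). Peaks were joined when sharing 1 bp, and a region was counted for a library when a peak of it overlapped. H3K27ac coverage was the percent of a region, or of a gene extended by 10 kb at both ends, covered by peaks, and was compared between 2 ERY and 2 iMK libraries with limma 3.58.1 (R 4.3.3, moderated test with a trend, no covariates) over all regions or genes covered in at least 1 library, with Benjamini-Hochberg adjustment at 0.05. An exact permutation test of 2 against 2 cannot give a two-sided p under 0.333 and was not used. Whether the limma p-values hold for regions without any spread between replicates was not tested. Python 3.11.15, numpy 2.4.6, pandas 2.3.3, pysam 0.24.0 and matplotlib 3.10.9 were used. Replicate pairs of 1 group shared at most 5.73% of their peaks with the same edges, so none was a copy.

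The members and the gene lists were chosen with earlier results of these data known. Values were given for promoter regions of listed genes, the 10 unlisted promoter regions with the largest H3K27ac difference (ties by width of H3K4me3), the 10 other regions with the highest mean H3K4me3 fold, and up to 10 with H3K27ac in no ERY or in both iMK libraries. Of the listed names, Ahsp and Setd8 were not matched, and some genes that met the naming rule are not reported here. The alternatives were other overlap, TSS, q-value and window settings, lists of the same length, another measure, scaling, filter and variance model, autosomes only, and each library left out.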

Additional observations from a re-analysis of the deposited data

How the results depend on the processing

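No paired analysis was possible because the labels number no replicates and the submission order pairs nothing. The number of ERY-only regions moved from 217 to 661 (promoters from 138 to 592) with lists of the same length, and ran from 230 to 1063 (promoters 146 to 912) when 1 H3K4me3 library was left out; it kept within 1.5 times of the original under the other overlap, q-value, chromosome and TSS settings. ERY-only regions higher in ERY for H3K27ac numbered 172 of 204. They were 366 of 1045 with the members called without iMK H3K4me3 library 2, and 282 of 656 with H3K4me3 lists of the same length. Those lower in ERY were 0, 1 on the log2 fold scale, and 18 and 8 with these 2 other sets of members. Over all regions tested in the fits of these 2 sets, 1399 of 9610 and 1224 of 8504 were higher, and 1311 and 1250 lower.

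Gene loci of the 9 erythroid lists lower in ERY numbered 4, 8 with 2 kb on each side and 16 with quantile normalization, and 1 to 6 with a library left out, while those higher ran from 49 to 123. Over all genes the ranges were 917 to 3276 higher and 754 to 3248 lower, and over the 7 other lists 4 to 12 and 8 to 46. On the log2 fold scale Fam53b reversed (-0.48, adjusted p = 0.328 by limma), and Tpt1, higher by coverage without passing, was lower and passed (-0.96, adjusted p = 0.0238 by limma). Of 777 comparisons of the named regions with an alternative, 751 kept their call, 12 lost it, 12 gained it in the same direction and these 2 reversed. The cause of these changes was not tested. Coverage is bounded by 0% and 100% and takes the same value in many regions, so p-values rest on a spread that limma shares among regions, and with a library left out, where the lone library is assumed to vary like the others, they can be very small for small differences.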
